A study of Mus musculus with 75 samples.

Results

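The 7 potassium channel genes Kcna10, Kcnma1, Kcnk1, Kcnj10, Kcnj16, Kcnj13 and Kcnq1, a list drawn up by name from 55291 features in the count table, were followed through 75 cochlear cells picked by hand and sequenced 1 by 1 with a Smart-Seq kit. The cells fell into 5 groups, all on a C57BL/6 background. The 17 WT_P30 OHCs (outer hair cells) carried Tdtomato through Slc26a5 CreER/+; Ai9/+, with tamoxifen at P20 and P21, and were taken at P30. The 16 WT_P60 SCs (supporting cells, chiefly pillar and Deiters cells) carried it through Fgfr3-iCreER+; Ai9/+, with tamoxifen at P30 and P31, and were taken at P60. The other 42 Tdtomato+ cells came at P60 from mice with Fgfr3-iCreER+, the transgene CAG-LSL-Atoh1+, the knock-in Rosa26 CAG-LSL-Ikzf2/+ and Slc26a5 DTR/+ (Fgfr3-Atoh1-Ikzf2-DTR), in which tamoxifen at P30 and P31 switched on both ectopic factors in SCs, and at P36 diphtheria toxin (20 ng/g) killed the endogenous OHCs. The study sorted these 42 cells by Myo7a and Prestin into 11 OHC-like cells (both present), 16 nascent HCs (Myo7a only) and 15 SCs failing to become HCs (neither), so those genes are not evidence here. The comparisons ask how far SCs given Atoh1 and Ikzf2 left the channel set of SCs and took up that of OHCs. The number of mice behind each group is not given in the sources used here, so p-values measure the spread between cells.

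Hair cells and their neighbours divide the handling of potassium. K+ enters hair cells from the endolymph through the transduction channels and leaves through voltage-gated and calcium-activated channels of the basolateral membrane. SCs take up K+ through inward rectifiers and pass it on through gap junctions, and stria vascularis returns it to the endolymph. Kcna10 encodes a Shaker-type voltage-gated channel known from hair cells, Kcnma1 the pore of the large-conductance calcium-activated (BK) channel, and Kcnk1 a weakly rectifying channel of the tandem-pore family. Kcnj10 and Kcnj16 encode inward rectifiers that assemble together in many epithelia and glia, and Kcnj13 a rectifier known from epithelia that transport ions. Kcnq1, with its partner Kcne1, carries K+ out of the marginal cells of the stria vascularis.

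Kcna10 (ENSMUSG00000042861.7) lies on the + strand at chr3:107183056-107195721 of GRCm38, Kcnma1 (ENSMUSG00000063142.15) on the - strand at chr14:23289431-24014491 and Kcnk1 (ENSMUSG00000033998.9) on the + strand at chr8:125995170-126030685. Kcnj10 (ENSMUSG00000044708.5) lies at chr1:172341210-172374085 and Kcnj16 (ENSMUSG00000051497.15) at chr11:110968033-111027968, both on the + strand. Kcnj13 (ENSMUSG00000079436.3) lies at chr1:87386363-87394729 on the - strand, inside Gigyf2 of the opposite strand, and Kcnq1 (ENSMUSG00000009545.14) at chr7:143106362-143427042 on the + strand, sharing exon sequence with the antisense Kcnq1ot1. The kit does not mark strand, so reads of such overlaps cannot be told apart. Gigyf2 was detected in 11 of 17 WT_P30 OHCs and in 15 of 16 WT_P60 SCs, whereas Kcnj13 was detected in 10 and in 1. The exons of Kcnma1 overlap 4930519K11Rik, which had no count in any cell, and those of Kcnk1 overlap Gm45875, which reached 13.2 CPM (read counts scaled to library size).

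The promoters of Kcna10 and Kcnj13, detected mainly in WT_P30 OHCs, and of Kcnj10 and Kcnj16, detected mainly in WT_P60 SCs, are shown because Atoh1, 1 of the pair of ectopic factors, binds E-boxes. Each runs from 250 bases before to 50 bases after a RefSeq start on GRCm38.p6, written along the gene's strand with any CAGCTG or CAGATG, in either orientation, in capitals. The windows are chr3:107182893-107183192 (+) for Kcna10, chr1:87394680-87394979 (-) for Kcnj13, chr1:172340960-172341259 (+) for Kcnj10 and chr11:110967783-110968082 (+), the first of 4 listed starts, for Kcnj16.
Kcna10: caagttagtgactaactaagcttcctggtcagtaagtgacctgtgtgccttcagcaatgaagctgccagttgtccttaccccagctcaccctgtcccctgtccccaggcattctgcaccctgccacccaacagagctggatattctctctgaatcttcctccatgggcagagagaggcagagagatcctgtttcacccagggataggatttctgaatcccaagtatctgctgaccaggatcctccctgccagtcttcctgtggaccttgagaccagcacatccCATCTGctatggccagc
Kcnj13: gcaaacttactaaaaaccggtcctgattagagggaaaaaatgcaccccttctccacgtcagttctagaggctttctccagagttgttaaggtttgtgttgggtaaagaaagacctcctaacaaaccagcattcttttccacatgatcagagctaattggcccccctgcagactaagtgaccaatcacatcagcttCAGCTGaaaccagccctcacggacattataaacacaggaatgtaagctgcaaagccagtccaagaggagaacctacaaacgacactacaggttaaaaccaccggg
Kcnj10: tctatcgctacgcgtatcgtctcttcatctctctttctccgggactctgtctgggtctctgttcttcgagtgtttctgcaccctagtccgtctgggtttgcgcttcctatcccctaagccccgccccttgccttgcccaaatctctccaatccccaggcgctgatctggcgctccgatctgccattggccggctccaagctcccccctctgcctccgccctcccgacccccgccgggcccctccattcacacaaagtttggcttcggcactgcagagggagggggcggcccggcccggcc
Kcnj16: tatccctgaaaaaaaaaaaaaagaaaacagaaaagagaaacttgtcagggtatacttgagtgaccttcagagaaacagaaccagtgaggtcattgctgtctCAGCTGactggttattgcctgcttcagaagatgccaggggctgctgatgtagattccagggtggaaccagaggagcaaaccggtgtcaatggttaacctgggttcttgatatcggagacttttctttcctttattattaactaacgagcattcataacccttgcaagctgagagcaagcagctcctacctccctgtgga
Kcna10 held CAGATG, read as CATCTG, at +33 from its start. Kcnj13 held CAGCTG at -55, and the first window of Kcnj16 held it at -149. Of the other 3 starts listed for Kcnj16, 1 had both motifs, at -1 and +40, and the rest had neither. These windows of Kcnj10, Kcnk1 and Kcnma1 held neither. Over 32851 RefSeq promoters of the same length, 16.3% held CAGCTG and 17.15% held CAGATG, so such a match is common and is given as a description.

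Depth ranged from 4264780 to 22934062 counts per cell, with group medians of 5967735 in WT_P30 OHCs and 7032279.5 in WT_P60 SCs, and lay higher in nascent HCs (median 11377685.5). A median of 4777 genes was detected in WT_P30 OHCs, 6872.5 in WT_P60 SCs and 8488 in OHC-like cells, of which OHC-like cell number 4 had 3348. The OHC markers Slc26a5, Ocm, Ikzf2 and Lbh summed to 13746 to 49621 CPM in WT_P30 OHCs. The 10 pillar and Deiters markers summed to 10961 to 25730 CPM in WT_P60 SCs, against 0 to 1019 CPM in WT_P30 OHCs. Of these, Slc1a3 had no count in either wild-type group. The IHC (inner hair cell) markers, of which Slc7a14 had no count, summed to a median of 444.0 CPM (up to 1424) in WT_P30 OHCs against a median of 0 in each other group, and the 5 neuron markers, of which Rbfox3 had no count, to 312.7 CPM (up to 918.5) against a median of 0 in WT_P60 SCs. Their part in the results was not tested. Each wild-type group was a series of consecutive library numbers of its own, so that library series and cell type cannot be told apart there.

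**Figure D1:**
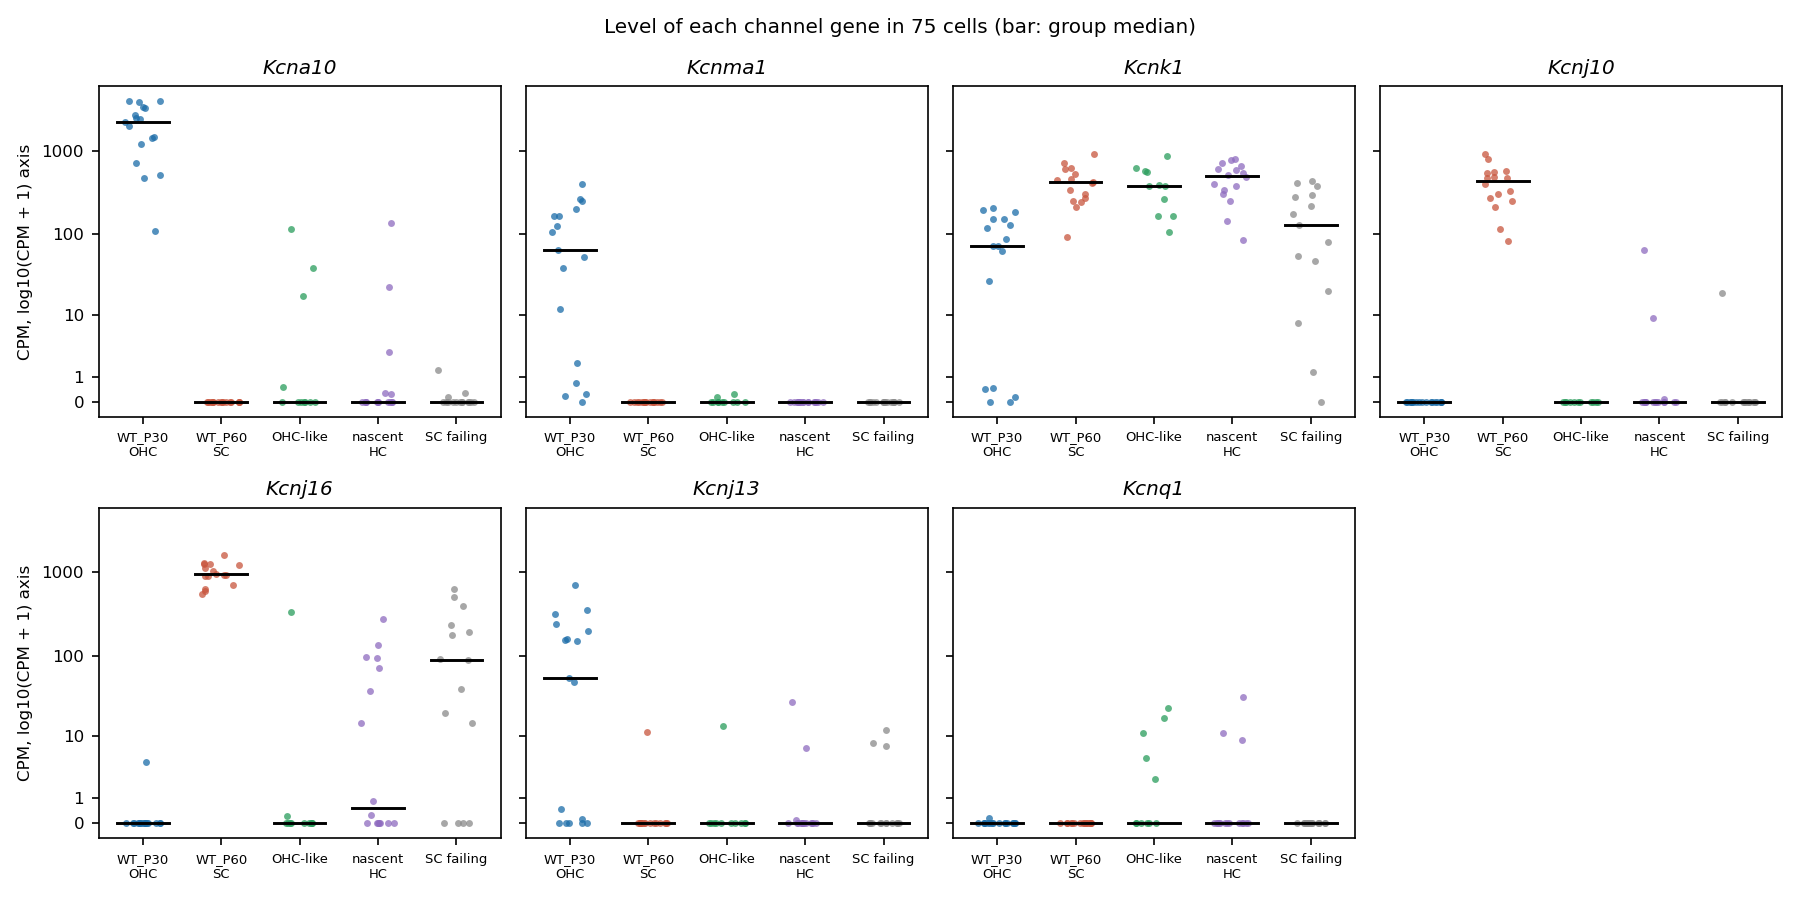
Level of each of the 7 channel genes in every cell (points; y axis CPM on a log10(CPM + 1) scale), by cell group on the x axis, with a bar at the group median. Kcna10 and Kcnma1 stand high in WT_P30 OHCs, Kcnj10 and Kcnj16 in WT_P60 SCs, and Kcnk1 in the WT_P60 SCs, OHC-like cells and nascent HCs.

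Kcna10 and Kcnma1 were higher in WT_P30 OHCs, Kcnj10 and Kcnj16 were higher in WT_P60 SCs. Kcnk1 and Kcnj13 differed without passing the test. Kcnk1 had the higher level in WT_P60 SCs. Kcnj13, an inward rectifier like Kcnj10 and Kcnj16, had the higher level in WT_P30 OHCs. A gene was called when edgeR's adjusted p was under 0.001 and the log2 fold change over 2 in either direction. Of the 6 members that passed the filter on low counts (all but Kcnq1), 4 were called between WT_P30 OHCs and WT_P60 SCs, beside 15.3% of the 11443 genes tested.

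Kcna10 was the most abundant of the 7 in WT_P30 OHCs. It ran from 110.4 CPM through a median of 2242 to 3954 CPM, and was detected (at least 1 CPM) in 17 of 17 cells. No WT_P60 SC had a single count, an exact upper limit of 20.6% of cells, and the groups did not overlap. Against a floor of 3 counts per library the mean of 2116 ± 1272 CPM (SD, n = 17) was at least 5040-fold higher in WT_P30 OHCs (edgeR, adjusted p = 1.16e-09).

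Kcnma1 was more uneven. In WT_P30 OHCs it ran from 0 through a median of 65.2 to 397.5 CPM, with at least 1 CPM in 13 of 17 cells and at least 1 count in 16. WT_P60 SCs again had no count. The mean of 108.6 ± 117.3 CPM (SD, n = 17) was at least 259-fold above the floor in WT_P60 SCs (edgeR, adjusted p = 2.01e-07). Of the 17 OHCs, 9 had both Kcnma1 and Kcnk1 at 1 CPM or more, 7 had both Kcnma1 and Kcnj13, and 1 lacked both Kcnma1 and Kcnk1.

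Kcnj13 was found in part of the WT_P30 OHCs, from 0 through a median of 53.3 to 706.5 CPM, in 10 of 17 cells. Among WT_P60 SCs only cell number 6 had it, at 11.4 CPM. The log2 fold change of 7.59 (SE 1.98) had an edgeR adjusted p of 0.00156 and was not called. Without that SC, the other SCs having no count, it was called (adjusted p = 1.67e-05). Kcnj13 was also called with limma-trend (adjusted p = 3.3e-06), with genes detected as a covariate (6.79e-06) and after thinning (7.92e-04). Kcnk1 ran the other way, from 0 through 71.7 to 206.6 CPM in WT_P30 OHCs (12 of 17 cells) and from 92.9 through 421.9 to 922.3 CPM in WT_P60 SCs (16 of 16). The groups overlapped, and the log2 fold change of -2.32 (SE 0.64; edgeR, adjusted p = 0.00311) was not called, although DESeq2 gave an adjusted p of 1.32e-04 and limma-trend 1.93e-05.

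The inward rectifiers Kcnj10 and Kcnj16 were both present in each of the 16 WT_P60 SCs. Kcnj10 ran from 82.7 through 433.1 to 913.2 CPM there and had no count in the 17 WT_P30 OHCs, at least a 958-fold difference (edgeR, adjusted p = 1.22e-07). Kcnj16 was the steadiest member, from 550.3 through 945.7 to 1615 CPM, with a mean of 997.9 ± 293.1 (SD, n = 16). In WT_P30 OHCs it appeared only in cell number 6, at 4.46 CPM. The log2 fold change was -11.85 (SE 1.80; edgeR, adjusted p = 2.27e-07). For both rectifiers the wild-type groups did not overlap.

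The same rectifiers are known from other cochlear cells, whose markers are given here for the WT_P60 SCs. The stria intermediate markers Tyr, Tyrp1 and Mlana had no count there, and the list of 5 summed to 0 to 96.1 CPM. Of the glial markers, Mbp and Pmp22 had no count and the list of 4 summed to 0 to 45.8 CPM. Of the outer sulcus and root markers, Slc26a4 and Epyc had no count and the list of 4 summed to 0 to 73.4 CPM. The latter list includes Lgr5, which the study also names for pillar and Deiters cells, so its sum is not particular to outer sulcus. The highest of these sums lay below the lowest SC for Kcnj16 (550.3 CPM), but that of the stria intermediate list lay above the lowest SC for Kcnj10 (82.7 CPM). These extremes need not lie in the same cell, and a marker sum does not bound the rectifier reads from such cells. The part of such cells in the levels was not tested.

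Per length, as TPM (read counts scaled to the summed exon length and to library size), the order in WT_P30 OHCs was Kcna10 with 2260 ± 1333, Kcnj13 with 241.7 ± 306.9, Kcnk1 with 91.2 ± 80.7 and Kcnma1 with 15.4 ± 17.5 (SD, n = 17). The last pair lay within each other's spread, as did Kcnj13 and Kcnk1, and by CPM Kcnma1 would come before Kcnk1, its summed exons being 16976 bases against 2235. In WT_P60 SCs the order of TPM was Kcnj16 with 676.7 ± 183.0, Kcnk1 with 517.1 ± 253.5 and Kcnj10 with 208.4 ± 106.6 (SD, n = 16), where neighbours again overlapped.

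**Figure D2:**
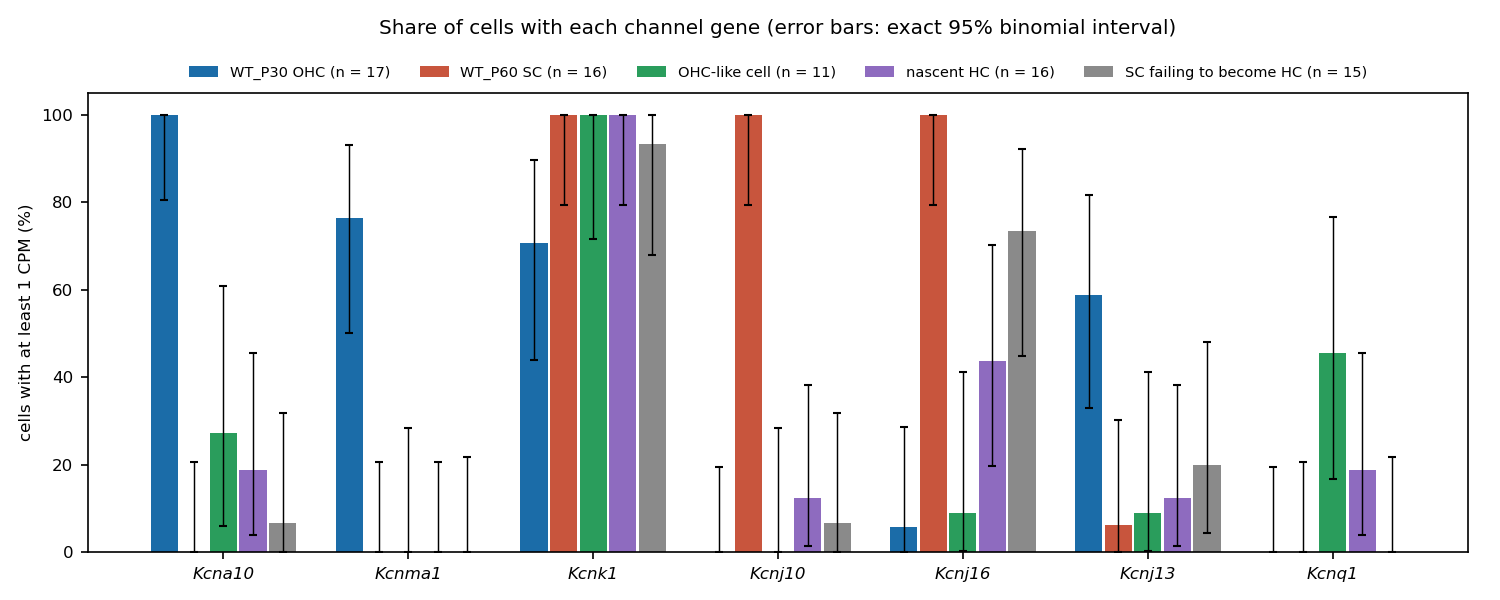
Percent of cells with at least 1 CPM (y axis) for each channel gene (x axis), 1 bar a group, with exact 95% binomial intervals. Kcna10 reached 100% in WT_P30 OHCs and 27.3% in OHC-like cells, and Kcnj16 stood at 100% in WT_P60 SCs, 73.3% in SCs failing to become HCs, 43.8% in nascent HCs and 9.09% in OHC-like cells.

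The OHC channels were scarce in the Fgfr3-Atoh1-Ikzf2-DTR cells. Kcna10 was present in a few OHC-like cells and nascent HCs at levels far below those of WT_P30 OHCs, and Kcnma1 was all but absent. Against WT_P30 OHCs, 3 members were called for OHC-like cells, 4 for nascent HCs and 4 for SCs failing to become HCs, beside 10.6%, 13.2% and 14.7% of all genes tested. These 3 comparisons share the WT_P30 OHCs, as the 3 further on share the WT_P60 SCs.

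Of the 11 OHC-like cells, numbers 9, 10 and 11 had Kcna10 at 38.8, 17.3 and 116.9 CPM, number 7 had 0.49 CPM and the other 7 had no count. OHC-like cell number 11 also held 3912 CPM of Ocm. Number 10 had no Ocm, however, and number 5, with 5571 CPM of Ocm, had no Kcna10. The group mean of 15.8 ± 35.7 CPM (SD, n = 11) was below that of WT_P30 OHCs by a log2 fold change of -7.07 (SE 1.69; edgeR, adjusted p = 8.56e-04). The highest OHC-like cell lay just above the lowest WT_P30 OHC, at 110.4 CPM. The call was lost with genes detected as a covariate (adjusted p = 0.0508), with no filter on low counts (0.00141) and without OHC-like cell number 1 (0.00162) or number 4 (0.00161), while the log2 fold change stayed between -10.53 and -6.87.

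Among the 16 nascent HCs, numbers 1, 8 and 10 had Kcna10 at 136.6, 22.9 and 2.99 CPM. Number 1 alone held 83.8% of the group's sum, and the other 13 cells had under 1 CPM. The log2 fold change from WT_P30 OHCs was -7.70 (SE 1.46; edgeR, adjusted p = 3.17e-05), a call lost with genes detected as a covariate (adjusted p = 0.0484). SCs failing to become HCs reached 1.39 CPM at most, in 1 of 15 cells, and their log2 fold change was -14.28 (SE 1.94; edgeR, adjusted p = 3.53e-08), with no overlap with WT_P30 OHCs.

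Set against WT_P60 SCs, which had no Kcna10 count, the mean in OHC-like cells was at least 37.6-fold higher (edgeR, adjusted p = 1.14e-05), and in nascent HCs at least 24.3-fold higher (adjusted p = 1.90e-05). Both were called. Both groups nonetheless overlapped the SCs, since most of their cells had no count, and with limma-trend, which weighs each cell on a log scale, neither was called (adjusted p of 0.0562 and 0.202). Without OHC-like cell number 11 the mean was 5.66 CPM, at least 13.5-fold higher, and the call stood (adjusted p = 7.11e-05). Without nascent HC number 1 the call for nascent HCs stood (adjusted p = 2.46e-04), at a mean of 1.76 CPM in the other cells, at least 4.19-fold higher.

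Kcnma1 had no count in any nascent HC or SC failing to become HC, and 4 counts in all in 2 of the 11 OHC-like cells. It was called lower than in WT_P30 OHCs in each case: at least 391-fold lower in nascent HCs (edgeR, adjusted p = 1.66e-07) and at least 258-fold lower in SCs failing to become HCs (adjusted p = 3.74e-07). For OHC-like cells the ratio of pooled counts per library size was 3673, with a counting interval of 1434 to 13480 that covers counting error only (edgeR, adjusted p = 4.21e-05). With genes detected as a covariate the call for OHC-like cells was lost (adjusted p = 0.0269).

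Kcnj13 was rare in all 42 cells. It was detected in 1 of 11 OHC-like cells (number 1, 13.5 CPM), in 2 of 16 nascent HCs (numbers 10 and 11, up to 27.4 CPM) and in 3 of 15 SCs failing to become HCs (up to 12.1 CPM). Against WT_P30 OHCs the log2 fold changes were -6.83 (SE 2.28), -6.02 (SE 1.84) and -6.23 (SE 1.92), with edgeR adjusted p of 0.0218, 0.0095 and 0.00897, and none was called. With limma-trend all 3 were (adjusted p of 7.02e-05, 1.79e-05 and 8.12e-05), as they were with genes detected as a covariate (1.21e-04, 1.22e-04 and 4.49e-05).

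The inward rectifiers of SCs differed in how often they were found. Kcnj10 was nearly absent from all 3 groups of Fgfr3-Atoh1-Ikzf2-DTR cells, whereas Kcnj16 was detected in most SCs failing to become HCs, in 7 of 16 nascent HCs and in 1 of 11 OHC-like cells. Against WT_P60 SCs, 2 members were called for OHC-like cells, 1 for nascent HCs and 1 for SCs failing to become HCs, beside 6.42%, 7.77% and 4.17% of all genes tested. So few members cannot be read against these shares.

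Kcnj10 had no count in the 11 OHC-like cells, at least 1267-fold below WT_P60 SCs (edgeR, adjusted p = 1.22e-05). It was detected in 2 of 16 nascent HCs, number 13 with 65.0 CPM and number 1 with 9.09 CPM, and in 1 of 15 SCs failing to become HCs, number 14 with 18.9 CPM. None of these reached the lowest WT_P60 SC. The log2 fold change was -6.51 (SE 1.55; edgeR, adjusted p = 0.00126) in nascent HCs, just outside the call, and -8.39 (SE 1.74; adjusted p = 4.13e-04) in SCs failing to become HCs, which was called. Nascent HCs were called too without their number 13 (adjusted p = 2.4e-05), without SC failing to become HC number 14 (6.21e-04) and in 7 of 10 alternative fits.

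Kcnj16 in SCs failing to become HCs ran from 0 through a median of 89.7 to 637.3 CPM, and was detected in 11 of 15 cells. In nascent HCs it ran from 0 through 0.54 to 279.9 CPM (7 of 16 cells), and in OHC-like cells number 1 had 331.1 CPM while the other 10 had 0.22 CPM or less. Nascent HCs and OHC-like cells lay wholly below WT_P60 SCs, and the SCs failing to become HCs overlapped them only at the edge, 637.3 against 550.3 CPM. The log2 fold changes from WT_P60 SCs were -2.64 (SE 1.28; edgeR, adjusted p = 0.260), -4.45 (SE 1.35; adjusted p = 0.0136) and -5.05 (SE 1.65; adjusted p = 0.0255) for SCs failing to become HCs, nascent HCs and OHC-like cells, and none was called. With limma-trend all 3 were (adjusted p of 2.10e-04, 3.98e-09 and 7.43e-12), so this call depended on the test. Without OHC-like cell number 1, edgeR called OHC-like cells lower as well (adjusted p = 2.38e-07).

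Against WT_P30 OHCs, where only cell number 6 had a count, Kcnj16 was called higher in SCs failing to become HCs (log2 fold change 9.21, SE 1.65; edgeR, adjusted p = 7.06e-06), in nascent HCs (7.41, SE 1.53; adjusted p = 8.55e-05) and in OHC-like cells (6.80, SE 1.52; adjusted p = 3.12e-04). With genes detected as a covariate the calls for nascent HCs and OHC-like cells were lost (adjusted p of 0.0183 and 0.192), as they were with limma-trend (0.00458 and 0.627). The value for OHC-like cells rested on number 1, which held 99.9% of the group's sum. Without it the log2 fold change was -2.62 and the gene was not called (adjusted p = 0.217). That cell had no Ocm and 31.8 CPM of Sox2, a gene of SCs. It was not alone in this, since OHC-like cell number 10 also had no Ocm. OHC-like cells number 11 and 4 had 49.1 and 31.7 CPM of Sox2.

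Kcnj10 was also called higher than in WT_P30 OHCs in nascent HCs (edgeR, adjusted p = 9.99e-05) and in SCs failing to become HCs (adjusted p = 9.17e-04), but each call rested on the few cells named above. The first was lost without nascent HC number 13 (adjusted p = 0.0016). The second was lost without SC failing to become HC number 14, the only cell with a count, and without WT_P30 OHC number 6 (adjusted p = 0.00125). With limma-trend neither was called (adjusted p of 0.218 and 0.619), and the second was also lost with genes detected as a covariate (0.00197) or DESeq2 size factors (0.00105).

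Kcnj10 was found in too few Fgfr3-Atoh1-Ikzf2-DTR cells to show whether it still went with Kcnj16. All 16 WT_P60 SCs had both Kcnj10 and Kcnj16. Among SCs failing to become HCs, 11 had Kcnj16 and 1 had Kcnj10, and that 1 cell had both. Among nascent HCs, 7 had Kcnj16 and 2 had Kcnj10, and no cell had both at 1 CPM or more. Nascent HC number 13, with Kcnj10, had 0.84 CPM of Kcnj16. By group median, the sum of the 10 pillar and Deiters markers had the same order of groups as Kcnj16. Its median was 3370 CPM (417.4 to 18228) in SCs failing to become HCs and 477.5 CPM (170.9 to 2903) in nascent HCs. It was 361.5 CPM (158.2 to 2108) in OHC-like cells, against 18419 CPM in WT_P60 SCs. Single markers differed. Slc1a3 had no count in WT_P60 SCs, and mean Sox2 was 70.2 CPM in SCs failing to become HCs against 40.1 CPM in WT_P60 SCs. Mean Sox10 (55.3 against 127.0 CPM) and Gjb6 (236.7 against 2222 CPM) went the other way. Their part in the result was not tested.

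**Figure D3:**
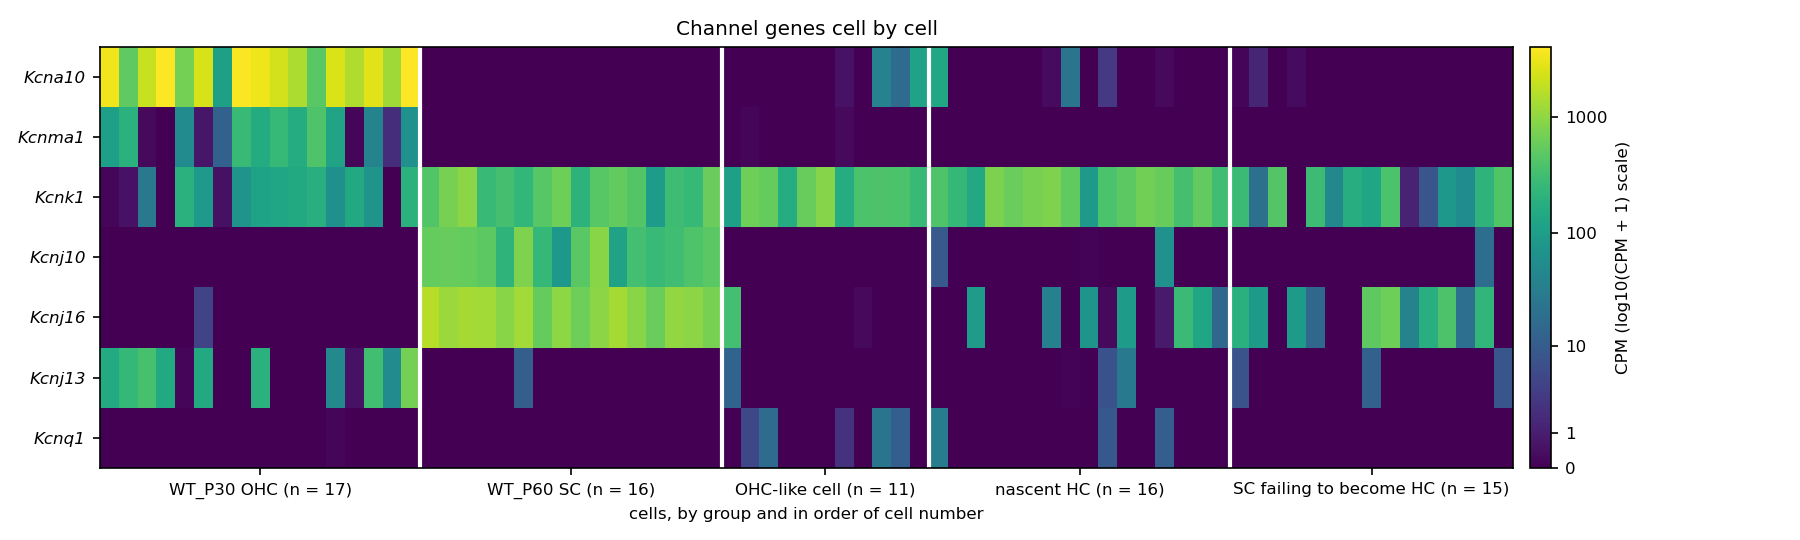
Level of the 7 channel genes (rows; colour is CPM on a log10(CPM + 1) scale) in each of the 75 cells (columns, by group and cell number). Kcnj10 and Kcnj16 are both bright in all 16 WT_P60 SCs, and in SCs failing to become HCs Kcnj16 is seen in 11 of 15 cells and Kcnj10 in 1.

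Kcnk1 was the member found in nearly all Fgfr3-Atoh1-Ikzf2-DTR cells, with levels in OHC-like cells and nascent HCs that overlapped those of WT_P60 SCs. It was detected in 11 of 11 OHC-like cells, 14 of 15 SCs failing to become HCs and 16 of 16 nascent HCs. It ran from 106.9 through 382.6 to 867.3 CPM in OHC-like cells, from 85.4 through 501.8 to 800.6 CPM in nascent HCs and from 0 through 130.4 to 434.2 CPM in SCs failing to become HCs. By mean the order of groups was nascent HCs (476.3 ± 215.9, n = 16), WT_P60 SCs (429.8 ± 213.5, n = 16), OHC-like cells (407.5 ± 232.0, n = 11), SCs failing to become HCs (169.2 ± 157.4, n = 15) and WT_P30 OHCs (86.2 ± 75.0 CPM, SD, n = 17). The first 3 lay within each other's spread.

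The log2 fold change of Kcnk1 from WT_P60 SCs was 0.15 (SE 0.63) in nascent HCs, -0.08 (SE 0.70) in OHC-like cells and -1.35 (SE 0.65) in SCs failing to become HCs, with edgeR adjusted p of 0.958, 0.987 and 0.261. From WT_P30 OHCs it was 2.47 (SE 0.65; adjusted p = 0.00187), 2.24 (SE 0.68; adjusted p = 0.00999) and 0.97 (SE 0.63; adjusted p = 0.317), and none of these was called. With limma-trend the nascent HCs and the OHC-like cells were called higher than WT_P30 OHCs (adjusted p of 1.18e-05 and 2.67e-04), and with DESeq2 the nascent HCs were (2.66e-04).

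Kcnq1 was found at 1 CPM or more in a few OHC-like cells and nascent HCs and in no other group. It failed the filter on low counts and so was not tested. Of the 11 OHC-like cells, numbers 2, 3, 7, 9 and 10 had 5.06, 17.0, 2.36, 23.2 and 11.0 CPM, and of the 16 nascent HCs, numbers 1, 10 and 13 had 31.3, 8.90 and 11.0 CPM. No WT_P60 SC or SC failing to become HC had a count, and 1 WT_P30 OHC had 1 read. The means of 5.33 ± 8.16 CPM (SD, n = 11) and 3.20 ± 8.23 CPM (SD, n = 16) were at least 12.7-fold and at least 7.62-fold above the floor in WT_P60 SCs. With no filter, edgeR called both against WT_P60 SCs (adjusted p of 7.87e-04 and 7.98e-04) and neither against WT_P30 OHCs (0.00189 and 0.00183).

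The antisense Kcnq1ot1 was detected in every group, in 14 of 17 WT_P30 OHCs, 15 of 16 WT_P60 SCs and 12 of 15 SCs failing to become HCs, which had no Kcnq1. Kcne1, the partner of Kcnq1 in the stria, had 1 read in 1 nascent HC and none elsewhere, Kcne3 had none in any cell, and Kcne2 reached 5.71 CPM in 1 OHC-like cell. The 5 stria marginal markers, which include Kcne1 and Slc12a2, summed to a median of 18.3 CPM (0 to 57.8) in OHC-like cells and 7.09 CPM (0 to 57.7) in nascent HCs, with Bsnd at no count in both groups, and to 37.5 CPM (0 to 203.1) in WT_P60 SCs. Their part in the result was not tested. Of the 5 OHC-like cells with Kcnq1, 2 had Kcna10, and of the 3 nascent HCs with Kcnq1, 2 had it.

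Within the 42 cells no member separated the 3 groups under the test. For OHC-like cells against SCs failing to become HCs, nascent HCs against SCs failing to become HCs, and OHC-like cells against nascent HCs, 0 of 6 members were called by edgeR, beside 1.03%, 1.35% and 0.0787% of all genes tested. With an unadjusted p under 0.05 stood Kcna10 in the first (log2 fold change 7.21, SE 1.56; adjusted p = 0.00143), Kcna10 in the second (6.58, SE 1.50; adjusted p = 0.00214) and Kcnj10 in the third (-8.34, SE 1.99; adjusted p = 0.0204), among 3, 2 and 2 members. DESeq2 called 2, 0 and 1 members, beside 396, 375 and 151 of the 11443 genes tested. Single cells bore on this: without OHC-like cell number 1 edgeR called 2 members in the first (Kcna10, adjusted p = 9.31e-04, and Kcnj16, 1.9e-05) and 1 in the third (Kcnj16, 8.17e-04), and without SC failing to become HC number 2 edgeR called Kcna10 in the first and the second (adjusted p of 3.1e-04 and 4.62e-04). Kcna10 was also called in the first without nascent HC number 1 (edgeR, adjusted p = 6.14e-04), and Kcnj10 in the second without SC failing to become HC number 14 (9.37e-04).

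The 42 cells were spread over 5 series of consecutive library numbers, called A to E here, and the groups were not spread evenly, since series C held 10 of the 15 SCs failing to become HCs. Kcnk1 lay lower in series A and C than in B, D and E by median in each group found there, but each such contrast had a single cell on 1 side. Nascent HCs had 146.0 CPM in 1 cell of series A and 85.4 CPM in 1 of series C. Their medians were 660.3 CPM in 6 cells of series B and 535.1 CPM in 4 of series D. The single OHC-like cell of series A had 106.9 CPM, against a median of 570.7 CPM in 5 cells of series B. SCs failing to become HCs had a median of 152.1 CPM in 4 cells of series A, up to 434.2 CPM, and 105.5 CPM in 10 of series C. The only SC failing to become HC of series E had 410.0 CPM of Kcnk1, inside the 250.2 to 541.8 CPM of the 4 nascent HCs there. In series A the single OHC-like cell and the single nascent HC had 331.1 and 95.1 CPM of Kcnj16, at or above the median of 90.3 CPM of the 4 SCs failing to become HCs. With library series as a factor the log2 fold change of Kcnk1 in nascent HCs against SCs failing to become HCs went from 1.49 (SE 0.65) to -0.41, and that of Kcnj16 from -1.81 (SE 1.22) to 9.07. Neither was called, and each series with both groups (A, C and E) had a single cell of one of them. For Kcnj16 the nascent HC of series C, at 71.5 CPM, lay below the median of 109.3 CPM of the SCs failing to become HCs there, as over all 42 cells, whereas in series E the only SC failing to become HC had no count.

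**Figure D4:**
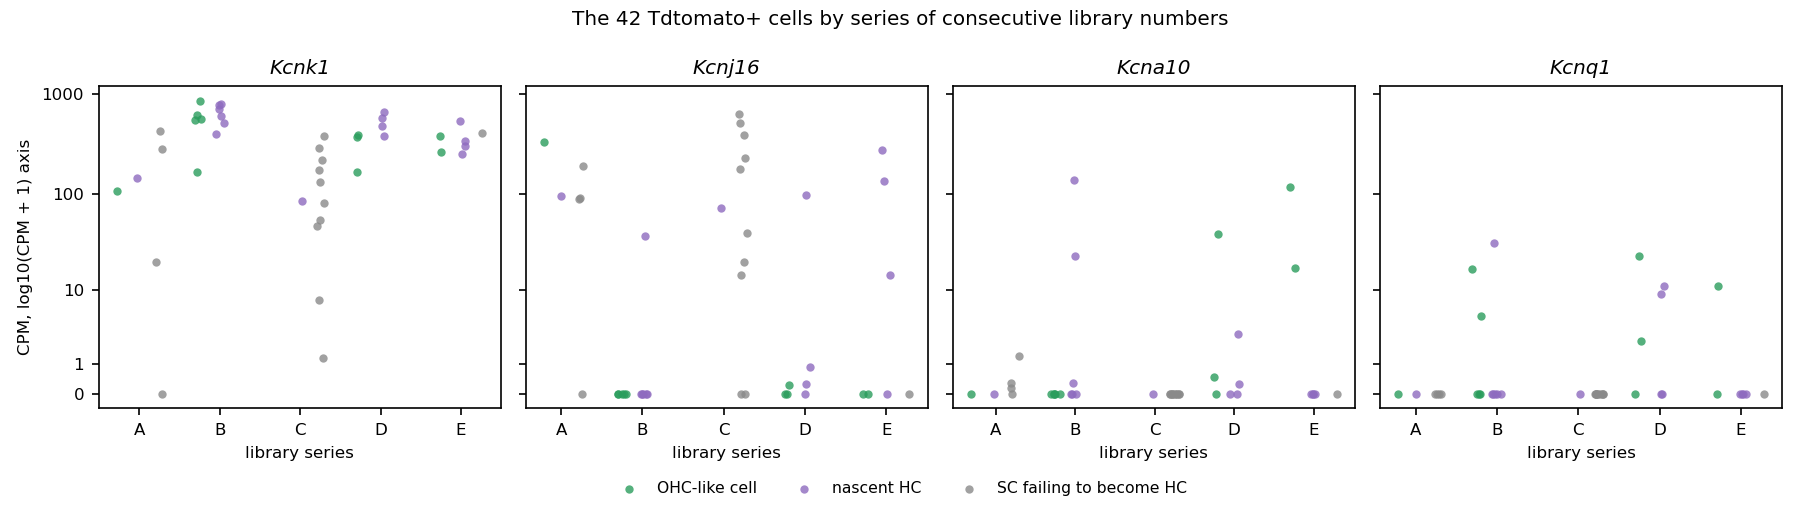
Level of Kcnk1, Kcnj16, Kcna10 and Kcnq1 (y axis CPM on a log10(CPM + 1) scale) in the 42 Tdtomato+ cells by series of consecutive library numbers (x axis), coloured by group. Series C holds 10 of the 15 SCs failing to become HCs. Among nascent HCs, Kcnk1 is lower in the single cells of series A and C than in series B and D.

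Thinning every cell to the smallest total, 4264780 counts, left the detection almost as it was, with Kcna10 in 3 of 11 OHC-like cells and 3 of 16 nascent HCs, Kcnj16 in 11 of 15 SCs failing to become HCs, and Kcnq1 in 4 rather than 5 OHC-like cells.

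The genes whose levels followed each member most closely over the 75 cells were, by Spearman's rho of log2(CPM + 1), Strip2 (0.866), AI593442 (0.862) and Gm2694 (0.847) for Kcna10, and Gm5111 (0.909), C1ql1 (0.904) and Vwa3a (0.904) for Kcnma1. For Kcnj10 they were Cav1 (0.883), 6330411D24Rik (0.880) and Gm40614 (0.876), and for Kcnj16 Trpm3 (0.861), Bdh2 (0.856) and Pgm5 (0.853). The likeness of the other members was lower, led by Cyb5r1 for Kcnk1 (0.643), Epha4 for Kcnj13 (0.643) and Hsd11b2 for Kcnq1 (0.630). These cells share groups, library series and depth, so the values describe the pattern only.

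Among 100 other Kcn genes and channel partners, 17 passed the filter. No other inward rectifier (of 12) and no other tandem-pore channel (of 13) passed it, so that Kcnj10, Kcnj16, Kcnj13 and Kcnk1 were the members of their classes with counts enough to test. Between WT_P30 OHCs and WT_P60 SCs, 2 of the 17 were called higher and 2 lower; against WT_P60 SCs, 4 were called higher in OHC-like cells and none lower, and 4 higher and 1 lower in nascent HCs. Over all genes tested, 4.96% were called higher and 10.3% lower in the first comparison, 5.77% and 0.655% in the second, and 6.31% and 1.46% in the third. Their median log2 fold change against WT_P60 SCs was 1.47 in OHC-like cells and 2.30 in nascent HCs, beside 0.32 and 0.34 over all genes tested.

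Kcnn2, the small-conductance channel of efferent inhibition, was at 335.1 ± 185.3 CPM in WT_P30 OHCs (17 of 17) and at 13.0 ± 17.1 in OHC-like cells (7 of 11). Its log2 fold change there was -4.69 (edgeR, adjusted p = 0.0104, not called). Kcnn2 was called lower than in WT_P30 OHCs in nascent HCs (-5.11; adjusted p = 7.1e-04; called in 16 of 21 fits) and in SCs failing to become HCs (-7.33; 2.86e-05; 21 of 21).

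Kcnh2, of the ether-a-go-go family, ran from 0 through 111.5 to 539.5 CPM in WT_P30 OHCs (15 of 17 cells) and had no count in WT_P60 SCs. It was detected in 4 of 11 OHC-like cells and 6 of 16 nascent HCs, up to 61.3 CPM in each, and in no SC failing to become HC. Its level in OHC-like cells was called higher than in SCs failing to become HCs (log2 fold change 9.48; edgeR, adjusted p = 2.1e-04), as was that in nascent HCs (9.21; 1.9e-04). With library series as a factor these log2 fold changes were 1.09 and 0.70 and neither was called, and the genes called over the whole table in the first of these comparisons went from 118 to 8. With limma-trend neither was called (adjusted p of 0.0875 and 0.0755), nor were OHC-like cells with genes detected as a covariate (0.00287). Its relative Kcnh7 showed another pattern, with no count in WT_P30 OHCs, 22.9 ± 27.0 CPM in WT_P60 SCs, 205.4 ± 187.4 in OHC-like cells (11 of 11) and 112.5 ± 97.3 in nascent HCs (15 of 16). Against WT_P30 OHCs its level in OHC-like cells was at least 463-fold higher (edgeR, adjusted p = 9.40e-09).

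The wild-type and the Fgfr3-Atoh1-Ikzf2-DTR cells differed in the auxiliary subunits of the BK channel family. Lrrc52, an auxiliary subunit of the family that binds BK-type channels, was at 101.6 ± 168.3 CPM in WT_P30 OHCs (10 of 17 cells) and was detected in 1 nascent HC elsewhere. Lrrc26, the related subunit, had no count in either wild-type group. It was at 279.1 ± 248.1 CPM in OHC-like cells (10 of 11), 174.3 ± 154.9 in nascent HCs (14 of 16) and 44.2 ± 141.6 in SCs failing to become HCs (4 of 15; SD). Against WT_P60 SCs it was at least 665-fold, 415-fold and 105-fold higher (edgeR, adjusted p of 7.1e-07, 9.7e-07 and 1.2e-05). The last value rested on SC failing to become HC number 15, at 552.3 CPM. Without it the mean of Lrrc26 was 7.94 CPM and the bound 18.9-fold, and with limma-trend over all cells SCs failing to become HCs were not called (adjusted p = 0.143). Kcnmb2 was detected in 1 WT_P30 OHC, 2 OHC-like cells and 2 nascent HCs, and Kcnmb4 in 2 WT_P30 OHCs.

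Abcc8, the sulphonylurea receptor of KATP channels, was detected in 11 of 17 WT_P30 OHCs (median 31.8 CPM, up to 445.9) and had no count in any of the 42 Tdtomato+ cells, at least 275-fold lower in OHC-like cells (edgeR, adjusted p = 5.3e-05). Kcnh3 had no count in either wild-type group and appeared in OHC-like cells (6 of 11) and nascent HCs (6 of 16), up to 669.7 and 296.6 CPM. SC failing to become HC number 5 had 2.26 CPM of it. Against SCs failing to become HCs neither group was called for Kcnh3 (edgeR, adjusted p of 0.00325 and 0.00794). Kcnb2 had no count in WT_P30 OHCs and was highest in SCs failing to become HCs, 152.6 ± 264.6 CPM (11 of 15). Kcnip3 and Kcnh6 were called in 2 comparisons each.

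**Figure D5:**
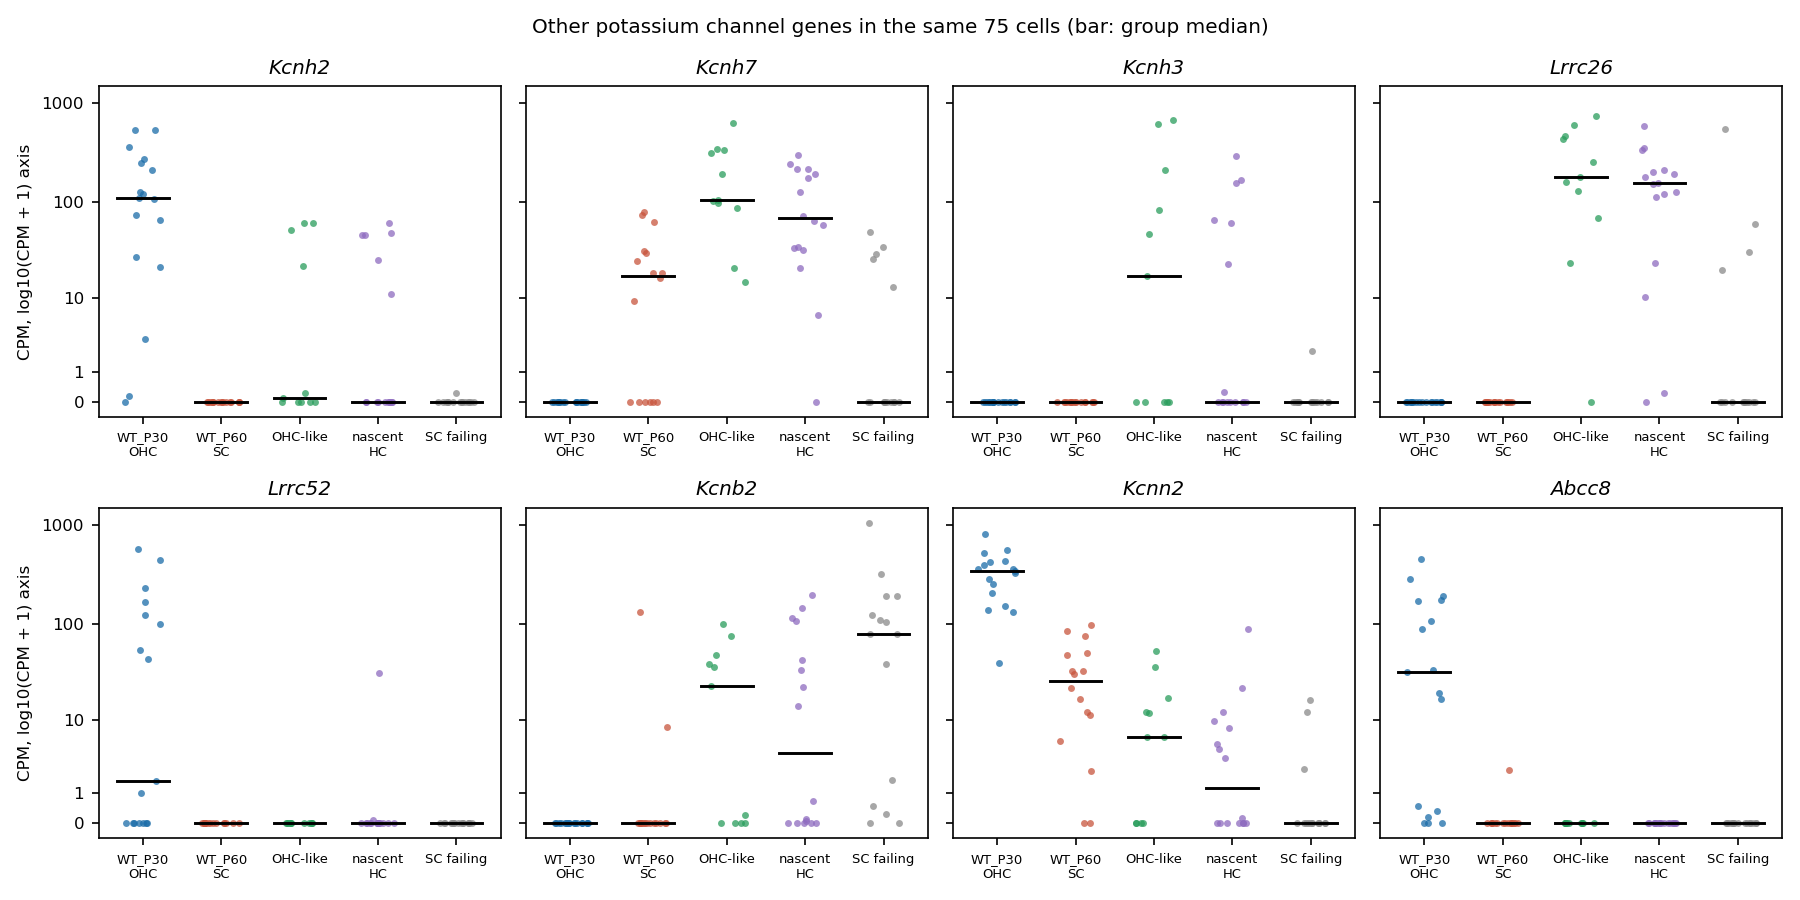
Level of 8 other potassium channel genes and partners in every cell (points; y axis CPM on a log10(CPM + 1) scale), by cell group on the x axis, with a bar at the group median. Lrrc26 is seen only in the Fgfr3-Atoh1-Ikzf2-DTR cells, and Lrrc52 and Abcc8 are seen almost only in WT_P30 OHCs.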

How the data were processed

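The 7 members and the gene lists were chosen with earlier results of these data known. Each cell was a Smart-Seq HT library without molecular identifiers. Per the labels, reads passed through FastQC 0.11.9, Trimmomatic 0.39, HISAT2 2.1.0, StringTie 1.3.5 and HTSeq 0.10.0 on mm10; the authors deposited raw counts per gene, and the annotation release and strand setting are not given in the sources used here. Beside the 55291 genes kept, 1 row (a WPRE sequence of no gene, 0.0254% of counts) was left out. Counts were scaled to CPM with TMM factors, and TPM was made from summed exon lengths of GENCODE M21. Genes passing filterByExpr (minimum count of 10; 11443 genes) were tested with the quasi-likelihood F-test of edgeR 4.0.16 over all 75 cells in 5 groups, with Benjamini-Hochberg adjustment over all of them, in 10 comparisons. The standard error was the log2 fold change divided by the square root of F. Fitted values for a group without counts depend on a prior count, so at-least folds against 3 counts per library are given instead. The ranges under the alternatives still hold such fitted values. Detection meant at least 1 CPM without TMM scaling, with exact Clopper-Pearson intervals (95%) that cover counting error only. Alternatives used limma 3.58.1 (prior count 2), DESeq2 1.42.0, other scalings, filters and covariates, thinning, and leaving out cells. The scripts were tested on simulated data. Named genes were all 7 members, up to 12 other channel genes with the smallest adjusted p, partners of Kcnq1 and Kcnma1, and known OHC channels; some of these are not reported here. Promoters are from RefSeq on GRCm38.p6; 6 of 7 members matched (Kcnq1 had no entry).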

Additional observations from a re-analysis of the deposited data

How the results depend on the processing

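The number of members called between WT_P30 OHCs and WT_P60 SCs was 4 and stayed within 1.5 times of that in every alternative run. For OHC-like cells against WT_P60 SCs it was 2, and 1 with only the groups compared, where Kcna10 did not pass the filter. Over all genes tested, 735 of 11443 became 222 of 7905 there. For nascent HCs against WT_P60 SCs it was 1; it was 2 with DESeq2 size factors, no filter on low counts, library size only, thinning to the smallest total or limma-trend, 1 to 2 when single cells were left out, and 3 at an adjusted p of 0.05 and a log2 fold change of 1. For SCs failing to become HCs against WT_P60 SCs it was 1, and 2 with limma-trend or DESeq2. Over all genes, calls for nascent HCs went from 889 of 11443 to 863 with DESeq2 size factors and 868 with library size only. They were 1197 with limma-trend, 1458 of 29042 with no filter, 850 of 11206 with thinning and 1575 at the looser threshold. Calls for SCs failing to become HCs went from 477 to 436 with limma-trend and 933 with DESeq2. Against WT_P30 OHCs the 3 members called for OHC-like cells became 1 with genes detected as a covariate and 5 at the looser threshold. Over all 11443 genes, 1211 called became 399 with the covariate and 2187 at the looser threshold. With that covariate the calls for Kcna10, Kcnma1 and Kcnj16 were all lost, and the 1 called was Kcnj13. The 4 for nascent HCs and the 4 for SCs failing to become HCs became 1 each with only the groups compared. There Kcnma1, Kcnj10 and Kcnj16 did not pass the filter. Over all genes, calls went from 1512 of 11443 to 219 of 6442 for nascent HCs. For SCs failing to become HCs they went from 1680 of 11443 to 211 of 5685. For OHC-like cells against SCs failing to become HCs 0 became 1 with thinning or limma-trend, 2 with DESeq2 or the looser threshold, and 0 to 2 without single cells. For nascent HCs against SCs failing to become HCs 0 became 1 with thinning or the looser threshold and 0 to 1 without single cells, and between OHC-like cells and nascent HCs 0 became 1 with DESeq2 or the looser threshold and 0 to 1 without single cells. Over all genes, the first of these comparisons went from 118 of 11443 to 103 of 11206 with thinning and 352 with limma-trend. It had 396 with DESeq2 and 580 at the looser threshold. The second went from 154 to 130 of 11206 with thinning and 548 at the looser threshold. The third went from 9 to 151 with DESeq2 and 105 at the looser threshold. The cause of the other changes was not tested. Leaving out single cells, other than OHC-like cell number 4, was chosen after seeing the data.

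Of 1048 values of single members under the alternatives, 941 kept direction and call, 60 gained the call, 23 lost it and 24 turned direction. Turned values concern differences that were not called, except Kcnj16 in OHC-like cells against WT_P30 OHCs (-2.62 without OHC-like cell number 1, to 11.04 without another cell). Against WT_P60 SCs, Kcnj13 turned with genes detected as a covariate to -5.87 in OHC-like cells, -4.42 in nascent HCs and -2.32 in SCs failing to become HCs, and, without single cells, ran from -5.69 (OHC-like cell number 1) to 6.46 in OHC-like cells and from -0.74 (nascent HC number 11) to 7.22 in nascent HCs. Kcnk1 turned to 0.0011 with only the groups compared and ran from -0.14 to 0.027 (OHC-like cell number 1) without single cells in OHC-like cells, and in nascent HCs to -0.071 with DESeq2 or its size factors and -0.21 with genes detected as a covariate. With library series as a factor, OHC-like cells against SCs failing to become HCs turned for Kcnj16 (0.48) and Kcnk1 (-0.76), and nascent HCs against them for Kcna10 (-1.70), Kcnj13 (-5.28), Kcnj16 (9.07) and Kcnk1 (-0.41). In that last comparison Kcnj13 also turned with genes detected as a covariate (-2.10), with limma-trend (-0.29) and ran from -2.07 (nascent HC number 11) to 0.31 without single cells, and Kcnj10 from -1.01 (nascent HC number 13) to 8.34. Between OHC-like cells and nascent HCs, Kcna10 ran from -0.86 (OHC-like cell number 11) to 3.18 and Kcnj13 from -7.23 to 1.45 (nascent HC number 11) without single cells.

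The cell numbers are only names: deviations of cells with the same number had median correlations between -0.0244 and 0.0028 over the 10 pairs of groups, with 1 pair of cells over 0.1. With the number as a replicate block the members called were 5, 3, 1 and 2 for WT_P30 OHCs, OHC-like cells, SCs failing to become HCs and nascent HCs against WT_P60 SCs, 3, 3 and 3 for the last named groups against WT_P30 OHCs, and 0 among the 42 cells, and Kcnj13 in OHC-like cells against WT_P60 SCs turned to -0.31. Any count above 0 in place of 1 CPM moved Kcnma1 in WT_P30 OHCs to 94.1% of cells, beyond its interval, and no other share. CPM in place of TPM changed the rank of 2 members in each of WT_P30 OHCs, OHC-like cells and nascent HCs. Depth limits a gene without counts to under 3 counts per library, about 0.42 CPM in WT_P60 SCs.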

Other observations

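Of the 5 cation-chloride cotransporters listed, which carry K+ with Cl- across the membrane, 3 passed the filter on low counts. Slc12a7, a K-Cl cotransporter known from Deiters cells, was at 678.3 ± 648.6 CPM in SCs failing to become HCs (14 of 15 cells), 290.2 ± 167.5 in WT_P60 SCs (16 of 16), 187.6 ± 168.4 in nascent HCs, 164.1 ± 102.8 in OHC-like cells and 47.4 ± 67.8 in WT_P30 OHCs (10 of 17; SD). It was called only between SCs failing to become HCs and WT_P30 OHCs (log2 fold change 3.84; edgeR, adjusted p = 3.2e-04). Slc12a2, the Na-K-Cl cotransporter, was at 60.4 ± 75.5 CPM in SCs failing to become HCs and 51.9 ± 85.4 in WT_P30 OHCs, and edgeR did not call it in any of the 10 comparisons. Slc12a4 and Slc12a5 were not tested.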
